A study of Caenorhabditis elegans with 4 samples.

Results

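Isolated peaks are binding regions of the transcription factor MDL-1 that stand alone on their chromosome, with more than 15000 bp free of any other peak on each side. The peaks came from chromatin immunoprecipitation followed by sequencing (ChIP-seq), in which DNA bound by a protein is recovered with an antibody and sequenced. Of 9533 peaks in the authors' combined list, 551 met this rule (5.78%). The 12 outermost peaks of the 6 chromosomes were left out because one of their sides has no neighbour, although 4 of them had an inner side over the limit. The members were chosen by the distances between deposited peak positions alone, so those distances are a description. Strength and width were not used to choose them. No gap in the list was shorter than 200 bp, so the peak calling may itself tie width to distance, which was not tested.

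All larvae were hermaphrodites of Caenorhabditis elegans strain OP106, grown at 20 °C with bacteria as food and taken as fed L1, the first larval stage. Their genotype was unc-119 (ed3) III with the integrated transgene wgIs106, which carries mdl-1 joined to TY1, EGFP and FLAG tags and a working copy of unc-119. The line was made by bombardment of an unc-119 (ed3) strain, and both kinds of library come from this one line. Goat anti-GFP antibody was used for 2 ChIP libraries and 2 libraries were made from input DNA, replicates 1 and 2 of each; whole larvae were crosslinked, so all tissues are mixed. The list holds a position and a q-value per peak and no value per library, so no value below has a replicate error or a test over samples.

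MDL-1 is a worm relative of the Mad proteins, basic helix-loop-helix leucine zipper factors that pair with a Max-like partner, in the worm MXL-1, bind E-box sequences and are known mostly as repressors that oppose Myc-type activators. In C. elegans the gene has been linked to lifespan and to insulin-like signalling. Worm autosomes have gene-rich centres and arms richer in repeats, and the X chromosome is poor in genes expressed in the germline. Positions are in WormBase WS180, and sequences and annotations of that build were not used here, so peaks are named by position and none was assigned to a gene.

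The limit of 15000 bp falls within a continuous range of distances. Just inside it were a peak on chromosome I from 7174474 to 7174657, with 15005 bp on its shorter side and a strength (-log10 of the deposited q-value) of 3.21, and one on I from 14662895 to 14663139, with 15006 bp and a strength of 5.80. Just outside were 2 neighbours on IV with 14978 bp between them. The first of these, from 16995446 to 16995869, had a strength of 9.89, and the second, from 17010848 to 17010933, had a strength of 2.15.

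Peak-free stretches over 15000 bp made up 2044 of the 9527 gaps between neighbouring peaks, or 21.5%. Of the 2042 peaks with such a stretch on the left and a neighbour on the right, 551 (27.0%) had one on the right as well. A further 2982 peaks had a long stretch on one side alone. The shorter free side of the isolated peaks had a median of 19905 bp, with quartiles of 17233 and 25989 bp, and the longer side a median of 36836 bp. Within 50 kb of their midpoint, isolated peaks had a median of 5 other peaks and the remaining 8982 peaks a median of 11. Isolated peaks can therefore lie close to crowded stretches, and the highest count within 50 kb was 27. No other peak within 50 kb was found for 15 of them.

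Together the isolated peaks covered 168882 bases, but with their free sides they held 32.0 Mb, or 32.0% of the 100.005 Mb between the first and last peaks of the chromosomes. On X this share was 50.4%, and on autosomes it ran from 20.0% on III to 36.2% on V.

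The X chromosome held more of the isolated peaks than any other chromosome. It had 147 of them, or 26.7% (exact Clopper-Pearson 95% interval 23.0 to 30.6%), although it held 11.3% of all peaks. Chromosome V had 115, IV had 99, I had 75, III had 58 and II had 57. Intervals here and below cover counting error only; they assume independent peaks, which neighbours are not.

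As a share of each chromosome's own peaks, isolated peaks made up 13.6% on X (95% interval 11.6 to 15.8%). The shares were 6.23% on V (5.17 to 7.43%), 6.11% on IV (4.99 to 7.39%), 4.91% on I (3.88 to 6.12%), 3.40% on III (2.60 to 4.38%) and 3.24% on II (2.46 to 4.18%). The intervals of V, IV and I overlap one another and those of III and II do so too. The interval of I also reaches those of III and II, while the interval of X overlaps no other.

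Per length, X carried 8.37 isolated peaks per Mb and the autosomes 4.90 per Mb together, a ratio of 1.71. Single autosomes ranged from 3.73 per Mb on II to 5.68 on IV. Peaks that were not isolated ran the other way, with 53.0 per Mb on X, 82.8 on V and 119.7 on III. The density of all peaks, which is lowest on X, enters the rule itself, so these orders are not independent of each other. Long gaps were also more frequent on X, at 34.0% of its gaps against 16.7% on III, and 40.2% of the X peaks with a long left side had a long right side.

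**Figure D1:**
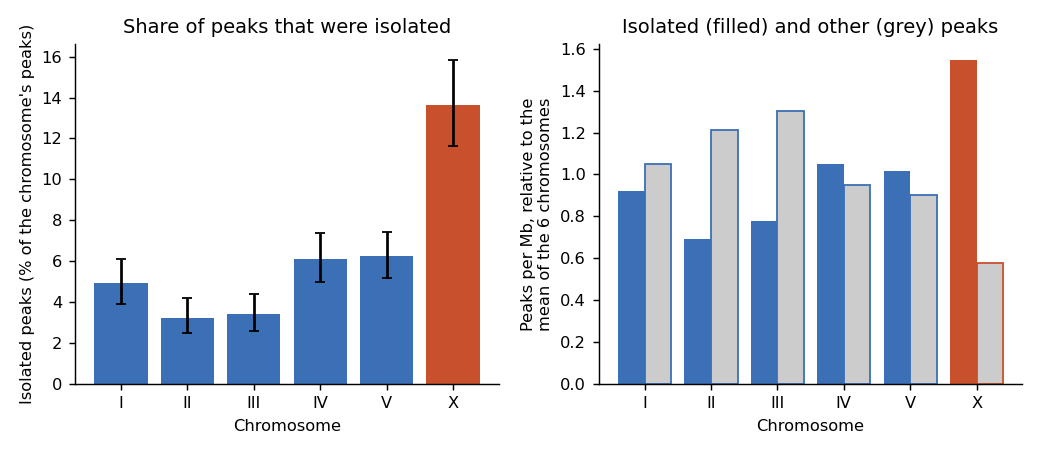
Isolated peaks by chromosome. Left, isolated peaks as a percentage of each chromosome's peaks, with exact 95% intervals; X stands at 13.6% and the autosomes between 3.24 and 6.23%. Right, isolated peaks per Mb (filled bars) and other peaks per Mb (grey bars), each divided by its mean over the 6 chromosomes; X has the tallest filled bar and the shortest grey bar.

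Along the autosomes, a larger share of isolated than of other peaks lay in the outer parts. Parts with fewer peaks leave more room for isolated ones by the rule itself, so these shares describe where the rule finds its members and are no separate result. The centre was taken as the central 50% of the span between the first and last peak. It held 174 of the 404 autosomal isolated peaks, or 43.1% (95% interval 38.2 to 48.1%), and 57.6% of the other autosomal peaks. The share was lower for isolated peaks on each of the 5 autosomes, with 33.3% against 58.3% on II, 37.9% against 56.3% on III, 42.6% against 62.3% on V, 44.0% against 55.8% on I and 51.5% against 54.7% on IV. On IV the interval of the isolated share, 41.2 to 61.7%, includes the value of the other peaks. On X the order was the reverse, with 53.1% of isolated and 47.1% of other peaks in the centre, and the interval of 44.7 to 61.3% includes the value of the other peaks.

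Each span was also divided into 10 equal parts. On V these held 8 to 16 isolated peaks, whereas all peaks ran from 88 to 283 per part. The ninth part of V had the fewest peaks of that chromosome and 15 isolated ones, so 17.0% of its peaks were isolated, against 3.18% in the sixth part, which had the most peaks. On II 2 of the 233 peaks in the fifth part (0.858%) and 10 of the 100 peaks in the second part were isolated, again the most and the least crowded parts. On X the most crowded part, the eighth with 155 peaks, had the lowest share, 6.45%. The highest, 21.5%, was in the sixth part, with 20 isolated peaks among 93, and the least crowded part, with 75 peaks, had 17.3%. On IV, by contrast, the least crowded part, the tenth with 109 peaks, had the lowest share, 3.67%. Of 103 segments of 1 Mb that held a peak, 3 had no isolated peak, and the median was 5. The most, 13, lay on X from 16 to 17 Mb.

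**Figure D2:**
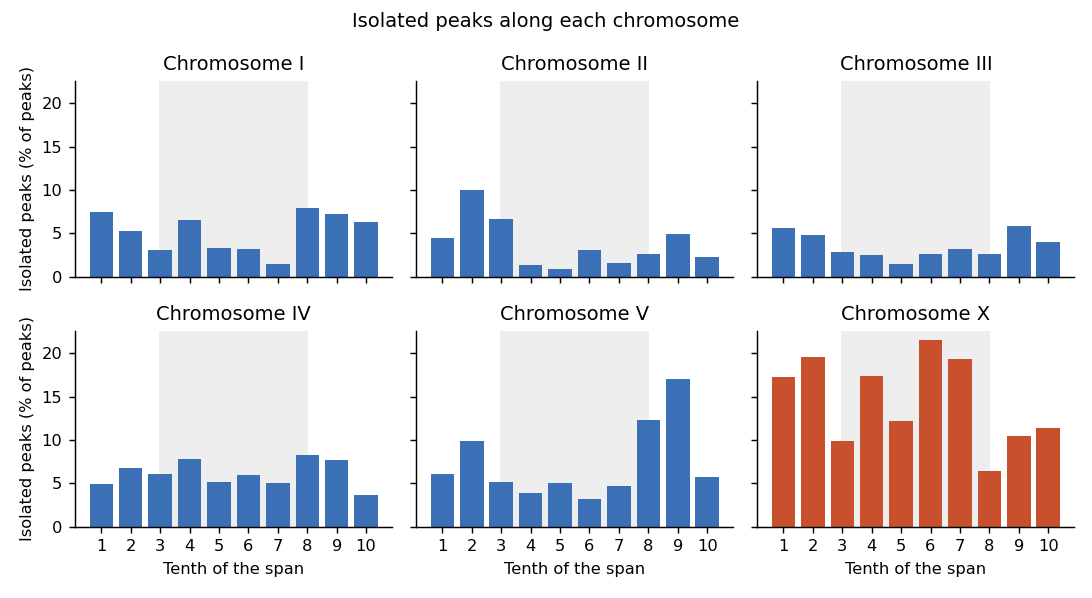
Isolated peaks as a percentage of all peaks in each of 10 equal parts of the span between the first and last peak, by chromosome; grey marks the central 50%. The bars of II, III and V are lower inside most of the grey area than outside it, and those of X range from 6.45 to 21.5%.

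In typical strength, isolated peaks were close to the others. Their strengths ranged from 2.00 to 66.9, with a median of 4.78 (95% interval of the median 4.47 to 5.40), and the median of the other peaks was 5.14 (4.98 to 5.26). Over all 9533 peaks the median was 5.10. Strengths above 10 were found for 156 isolated peaks, or 28.3% (24.6 to 32.3%), against 27.9% of all peaks. Strengths below 3 were found for 154, or 27.9% (24.2 to 31.9%), against 25.9% of all peaks. By strength, isolated peaks made up 6.29% of the weakest 25% of the list, then 5.87% and 5.33%, and 5.62% of the strongest 25%.

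No common direction was seen across chromosomes. The median strength of isolated peaks was 6.21 on I, where other peaks had 5.33, and 3.75 on V, where they had 4.78. It was 4.69 against 5.46 on III and 4.47 against 4.73 on IV. On II the values were 5.07 and 5.07, and on X 5.66 and 5.66. Only on V did the interval of the isolated median, 3.15 to 4.57, leave out the median of the other peaks. Within V, the 49 isolated peaks of the centre had a median strength of 4.33 (3.15 to 7.10) and the 66 of the outer parts one of 3.47 (2.96 to 4.64), with overlapping intervals.

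At the very top of the list isolated peaks were few. None was among the first 100 peaks of the list, and the strongest ranked 176. A strength above 50 was reached by 6 isolated peaks, or 1.09% (0.401 to 2.35%), against 3.06% of all peaks. Had the isolated peaks followed the other peaks of their own chromosomes, 18.2 would be counted. Strengths above 30 were found for 29 (5.26%, 3.55 to 7.47%), an interval that includes the 7.10% of all peaks. At this limit the direction differed by chromosome class, with 3.22% of isolated and 7.07% of other peaks on autosomes, and 10.9% and 8.49% on X. Above 20 the shares were 8.17% and 12.6% on autosomes, and 19.0% and 15.8% on X. Whether X and autosomes differ in this was not tested. Above 100 there were 0 of 551, against 0.850% of all peaks. A share of 3 counts would be 0.544%, and the exact interval reaches 0.667%. The rarity at the top was also seen among peaks that were not isolated but had no close neighbour: strengths above 50 were found for 6.99% of peaks whose nearer neighbour lay within 500 bp, 1.85% at 2 to 5 kb and 1.05% at 10 to 15 kb.

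The strongest isolated peak lay on V from 14054996 to 14055482, with a width of 487 bp. The authors' deposited table gives it a q-value of 1.21e-67, a strength of 66.9. Its free sides were 26239 and 36880 bp, and its nearer neighbour had a strength of 9.69. Of the 10 strongest, 5 lay on X, 3 on III and 1 each on V and I, and their strengths ran from 45.9 to 66.9.

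The strongest isolated peaks of X included 2 consecutive ones. The peak from 2971016 to 2971942 (strength 50.1, 927 bp) and the peak from 2996570 to 2997434 (strength 60.4, 865 bp) were 24627 bp apart, and their outer free sides were 17074 and 22617 bp. The outer neighbours were weaker, with strengths of 2.39 and 3.83. The others on X lay from 14525411 to 14526255 (strength 55.3), from 16056141 to 16056784 (strength 48.9) and from 7334182 to 7334770 (strength 46.0).

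On III the 3 strong isolated peaks lay from 10989192 to 10989888 (strength 53.6), from 1080573 to 1080926 (strength 51.4) and from 12250112 to 12250607 (strength 45.9). The second of these was 354 bp wide, the narrowest of the 10. The one on I lay from 4535788 to 4536448 (strength 48.0). The strongest isolated peak of IV lay from 3050238 to 3051066 (strength 43.5), and that of II from 8184975 to 8185303 (strength 39.9). The peak on II had 15 other peaks within 50 kb, so it stood in a gap of a crowded part of its chromosome.

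The neighbours of isolated peaks were of ordinary strength. The nearer neighbour had a median strength of 5.14 for isolated peaks and 5.19 for the others. In 264 of the 551 cases (47.9%) the isolated peak was stronger than its nearer neighbour. This share was not computed for the other peaks. Some isolated peaks are each other's nearer neighbour, and such pairs balance by themselves, so the share says little about the neighbours. Across the isolated peaks, which share their libraries and are not replicates, Spearman's rho of strength with the length of the shorter free side was -0.0057 (n = 551).

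Isolated peaks were seldom wide. Their widths ranged from 1 to 1428 bp with a median of 276 bp (95% interval 264 to 291), against 285 bp (281 to 289) for other peaks. Under 200 bp there were 150, or 27.2% (23.5 to 31.1%), against 27.2% of all peaks, but 22.9% of the other peaks once these are weighted to the chromosomes of the isolated ones. Within X the shares under 200 bp were 13.6% of isolated and 6.87% of other peaks, and on autosomes 32.2% and 29.5%. In the X segment from 6 to 7 Mb both sets were narrow, with median widths of 178 bp for 10 isolated and 239 bp for 38 other peaks. On the rest of X the medians were 383 bp for isolated and 390 bp for other peaks. Further, 33 isolated peaks (5.99%) were narrower than 50 bp, against 5.95% of all peaks. Above 600 bp there were 39, or 7.08% (5.08 to 9.55%), against 10.9% of all peaks. Above 1000 bp there were 4, or 0.726% (0.198 to 1.85%), against 2.73% of all peaks. With the shares of the other peaks on their own chromosomes, 73.5 and 18.5 would be counted.

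All 4 isolated peaks over 1000 bp lay on X, and none of the 404 on autosomes did so, where a count of 0 allows up to 0.743% and 2.57% of the other autosomal peaks were that wide. The widest, of 1428 bp from 10395559 to 10396986, was also among the weak ones, with a strength of 3.01. In the whole list 2 peaks combined a width over 1000 bp with a strength below 4. The next were 1217 bp wide from 9999214 to 10000430 (strength 37.4), 1198 bp from 11605378 to 11606575 (strength 33.1) and 1133 bp from 5728875 to 5730007 (strength 9.46). The fifth, of 927 bp, was the peak at 2971016 named above.

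**Figure D3:**
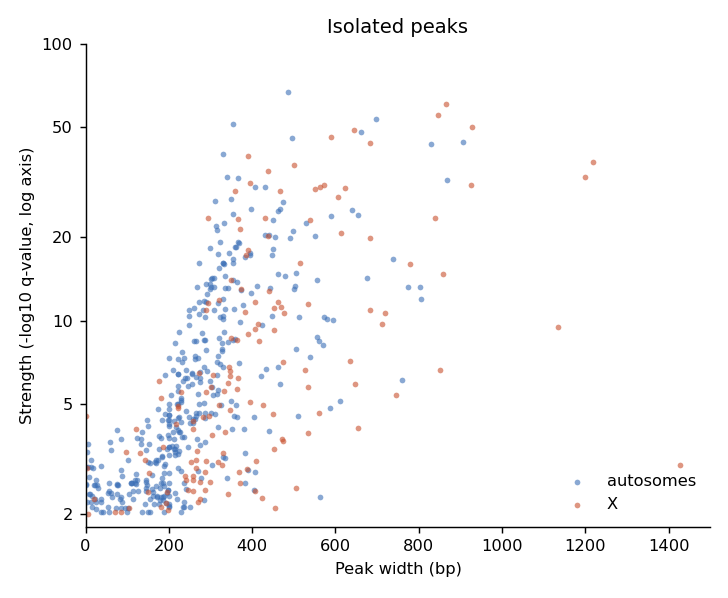
Width (bp) and strength (-log10 q-value, log axis) of each isolated peak, 404 on autosomes and 147 on X. Points rise from narrow and weak to wider and strong; those beyond 1000 bp are 4 peaks of X, of which the widest has a strength of 3.01.

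The X and autosomal isolated peaks differed in width as the rest of the list does. Median widths were 369 bp (343 to 406) for isolated and 384 bp (371 to 400) for other peaks on X, and 247.5 bp (229 to 268) and 274 bp (270 to 278) on autosomes. Because X contributes 26.7% of the isolated peaks, the pooled medians lie closer together in width than those of autosomes or of X alone. By chromosome the isolated median was lower on V (214 against 282 bp), III (230 against 261), IV (257 against 286), X (369 against 384) and I (284 against 296), and higher on II (262 against 251). Only on V did the interval of the isolated median, 199 to 248 bp, leave out the median of the other peaks.

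Width rises with strength among isolated peaks, with a Spearman's rho of 0.73 across the 551 peaks, so widths were also set against peaks of similar strength. After the mean log2 width of the same of 20 equally filled strength classes was subtracted, isolated peaks on X had a mean of 0.34 ± 0.095 (SE, n = 147 peaks) and other X peaks one of 0.55 ± 0.030 (SE, n = 931 peaks). On autosomes the means were -0.17 ± 0.056 (n = 404) and -0.062 ± 0.012 (n = 8051). These SE are over peaks and not over replicates. The difference was -0.22 on X and -0.11 on autosomes on the log2 scale, and -0.038 when all chromosomes were pooled. The mean was lower for isolated peaks on 5 of the 6 chromosomes and higher by 0.020 on I. Without the X segment from 6 to 7 Mb, which held 10 isolated peaks with a median width of 178 bp, the difference of means on X was -0.14. The segment held isolated peaks of 2 and 5 bp, with adjusted widths of -7.05 and -4.12, which weigh on a mean. Medians on X changed little in their distance, with 0.26 for isolated and 0.49 for other peaks, and 0.30 and 0.52 without the segment.

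Strength and width changed with distance mainly at short range. The median strength of all peaks was 6.25 where the nearer neighbour lay within 500 bp, 5.48 at 500 to 1000 bp, 4.92 at 1 to 2 kb and 4.39 at 10 to 15 kb. Beyond the limit it was 4.64 at 15 to 20 kb, 4.70 at 20 to 30 kb and 5.77 (4.05 to 7.30) for the 90 peaks with more than 30 kb. Median widths were 331 bp within 500 bp, 266.5 bp at 10 to 15 kb, and 275.5, 269 and 299.5 bp in the classes beyond the limit. The intervals of all classes from 5 kb upwards overlap for strength and for width. Peaks wider than 1000 bp fell from 7.82% within 500 bp to 0.995% at 2 to 5 kb and 0.874% at 10 to 15 kb. They were 0.357% at 15 to 20 kb, 1.10% at 20 to 30 kb and 1.11% beyond. X made up 14.0% of the peaks at 10 to 15 kb, 25.7% at 15 to 20 kb and 34.4% beyond 30 kb.

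**Figure D4:**
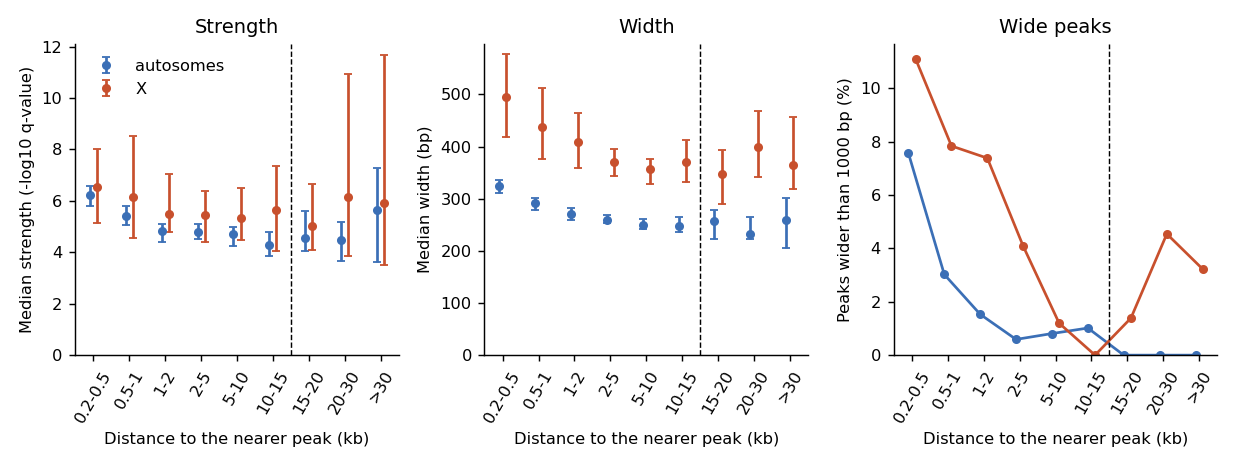
Median strength (-log10 q-value) and median width (bp) with 95% intervals, and the percentage of peaks wider than 1000 bp, by distance to the nearer peak, on autosomes and on X. The dashed line marks 15 kb; the values step down over the first classes and the intervals overlap from 5 kb upwards.

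The most remote peak lay on V from 16965288 to 16966154. It had 124642 bp free on its left and 280483 bp on its right. Its width was 867 bp and its strength 32.1, rank 598 of the list. The next were weaker: one on V from 2486660 to 2486842 (shorter side 102889 bp, strength 3.23), one on V from 2909674 to 2909849 (98146 bp, strength 3.45), one on V from 18346090 to 18346390 (79621 bp, strength 13.2) and one on I from 12426774 to 12427058 (73341 bp, strength 6.83). Of the 14 peaks with more than 50000 bp on both sides, 3 were on X. Of the 20 with the longest shorter side, 8 were on V and 4 on X. Of all isolated peaks, 20.9% were on V and 26.7% on X. X held 34.4% of the 90 peaks with more than 30 kb free on both sides, so its share depends on the limit taken.

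Of the 551 isolated peaks, 281 (51.0%) were next to another one. The rule already gives each flanking peak a long stretch on one side. Of the 1102 flanks, 326 (29.6%) were isolated peaks. Long stretches made up 21.5% of all gaps, and 27.0% of all peaks with a long left side had a long right side too. The 27.0% counts the isolated peaks themselves, so it is no separate yardstick. Whether isolated peaks adjoin each other more often than the rule sets was not tested. The adjacent peaks formed 118 runs of 2 or more, of which 36 were on X, which held 26.7% of the isolated peaks. Runs of 3 or more numbered 29, with 12 on X, and runs of 4 or more numbered 8, with 4 on X, 2 on IV and 2 on V. Long gaps were more frequent on X, so the rule itself favours runs there. The counts on X are therefore no separate result, and the 26.7% is no yardstick for them.

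The longest run stood apart in length, with 10 peaks where the next had 5. It covered 341070 bp of X from 9743419 to 10084488, with inner gaps of 15144 to 93619 bp. Its peaks were of more than ordinary strength for isolated peaks, with a median of 15.5, and 6 of the 10 were above 10. In order along the chromosome their strengths were 20.2, 5.59, 3.11, 31.5, 10.9, 31.0, 37.4, 6.62, 9.31 and 20.0. Strong and weak peaks were mixed within it. Widths ran from 333 to 1217 bp with a median of 482 bp.

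**Figure D5:**
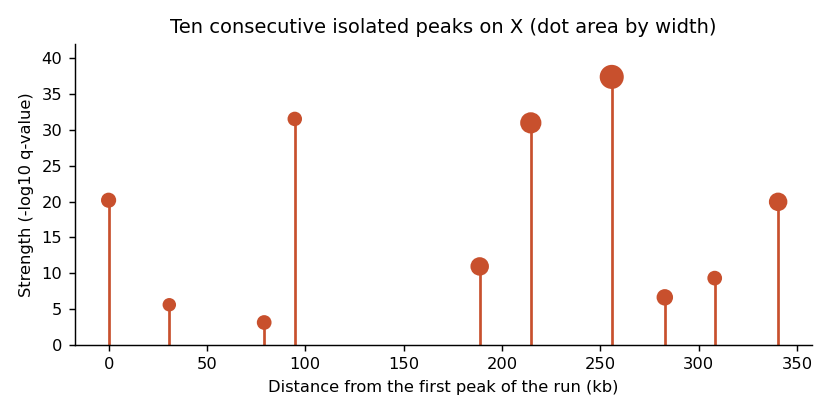
The 10 consecutive isolated peaks on X, placed by their distance in kb from the first one; height is strength (-log10 q-value) and dot area is proportional to width. Strengths run from 3.11 to 37.4, and the widest peak, of 1217 bp, is also the strongest.

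The other runs held mostly weaker peaks. A run of 5 on X from 16377876 to 16551570 had a median strength of 5.74, and a run of 5 on IV from 6156797 to 6294403 one of 2.55. The runs of 4 had medians of 3.73 on X from 1590064 to 1838057, 4.15 on X from 6410523 to 6551372, 3.04 on IV from 3899958 to 3988987, 4.03 on V from 3410184 to 3523531 and 5.75 on V from 14876312 to 14948987. Their strongest members had strengths from 6.25 to 29.99.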

How the data were processed

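The labels name 2 anti-GFP and 2 input libraries; per the labels' protocols larvae were crosslinked in 2% formaldehyde, chromatin was sonicated, and DNA was size selected before sequencing. Per the file headers, coordinates are of WormBase WS180 and, per the source column, PeakSeq called the peaks. The authors deposited one combined list with a q-value for each peak, all below 0.01. Not given in the sources used here are the aligner, versions, read filters and the way of combining replicates. Depth is unknown, and a stricter or looser threshold would change which peaks count as neighbours.

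Peaks were sorted by chromosome and start. Free sides were start minus previous end minus 1, and next start minus end minus 1, and peaks with both over 15000 bp were kept. Strength was -log10 of the deposited q-value. Medians have exact binomial order-statistic intervals of 95% and shares Clopper-Pearson intervals. For a count of 0, the share said to be allowed is that of 3 counts, which is lower than the upper Clopper-Pearson limit. No test was run, since the list has no value per library. Counts by chromosome weight use the shares of other peaks on each chromosome, weighted by the chromosomes of the isolated peaks. Peaks were named by rule: the 10 strongest, 5 widest, 5 with the longest shorter side, 2 on each side of the limit, the strongest of each chromosome, and the longest runs. The members, measures and rule were chosen with earlier results of these data known. The search was tested on simulated lists with planted isolated peaks, where all 2400 peaks were classed rightly in 20 of 20 lists. A peak between 2 planted ones was counted as isolated, as the rule has it. The median interval was tried on 20 separate draws of random values, not on the lists, and held the true median in 19. Software was scipy 1.17.1, matplotlib 3.10.9, pandas 2.3.3 and numpy 2.4.6 under Python 3.11.15.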

Additional observations from a re-analysis of the deposited data

How the results depend on the processing

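No paired analysis was possible because the combined list holds no value per library. Leaving out a replicate was not possible either. Of 86 recomputed values, 59 stayed within the interval of the reported value, or within 1.5 times for counts. With 10000, 20000 and 30000 bp required, 1123, 271 and 90 peaks were isolated. At 10000 bp 20.2% of them lay on X, and at 30000 bp 34.4%. At 30000 bp their median strength was 5.77, median width 299.5 bp and autosomal share in the centre 32.2%. For the other peaks at 30000 bp these were 5.10, 285 bp and 57.1%. Strength and width were thus in the reverse order of that at 15000 bp. The intervals of the isolated medians, 4.05 to 7.30 and 260 to 341 bp, include the values of the other peaks. With q-values under 0.001, 721 peaks were isolated, of which 397 were among the 551. The 721 had a median strength of 7.05 and a median width of 320 bp, 36.2% had a strength above 10 and 23.0% lay on X. For the other peaks under this limit these values were 7.49, 328.5 bp, 37.8% and 10.9%. The higher strengths and widths follow from the removal of weak peaks. With peaks within 1 kb merged, 621 regions were isolated with a median width of 301 bp. The share on X was 30.9% without chromosome I, 32.5% without IV and 33.7% without V, as fewer other isolated peaks were left. Without V the median strength was 5.13 for isolated and 5.19 for other peaks, and the median width 290 and 287 bp. Without X these were 4.53 and 5.04, and 247.5 and 274 bp. Both median widths were 285 bp without IV. The small pooled differences in strength and width thus depend on which chromosomes are kept. In every setting that gave a share on X, that share was above the one of the other peaks. Each setting applied a distance rule to the same list, in which peaks are least dense on X. The order was thus largely set by the rule and is no separate result. With the centre as the inner one of 3 equal parts, 29.7% of autosomal isolated and 39.3% of other peaks lay in it. Within chromosomes, median strength differed by 0.89 on I, -0.77 on III and -1.03 on V, against -0.36 pooled, and median width by 11 bp on II, -31 on III, -29 on IV and -68 on V, against -9 pooled. The difference in mean strength-adjusted width was -0.22 on X and -0.14 on X without 6 to 7 Mb, against -0.038 pooled. The medians given above changed less on X. The splits of adjusted width and the weighting by chromosome were chosen after seeing the data. Read depth is unknown, so weaker sites in the free stretches may lie below the threshold.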
